A study of Arabidopsis thaliana with 6 samples.

Results

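The 29 Aux/IAA genes of Arabidopsis thaliana (IAA1 to IAA20 and IAA26 to IAA34) and 9 genes for enzymes that inactivate auxin (GH3.1 to GH3.6, GH3.9, GH3.17 and DAO1) were followed in callus by bulk RNA-seq. These 38 genes were taken by their locus identifiers out of 36793 loci in the count table, and all 38 were found there. The callus was of the Col-0 genotype, the standard laboratory accession, and grew from leaves cut from seedlings of 2 weeks and laid on callus-inducing medium. A group of 3 replicates was collected on day 12 of incubation (12DAC) and a group of 3 on day 7 (7DAC), with genotype, explant and medium shared by both. The comparison asks which of these genes differed between the older and the younger callus, and with no leaf sample analysed here each change is relative to day 7. The labels do not say whether replicates came from separate plants or plates, so the p-values measure the spread between these libraries.

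Auxin is read by a short circuit. Aux/IAA proteins bind auxin response factors and, with the corepressor TOPLESS, keep auxin genes off; auxin glues the Aux/IAA degron to the receptor TIR1 or an AFB protein, and the repressor is then destroyed. Many Aux/IAA and GH3 genes are themselves switched on by auxin, so they act as feedback. GH3 enzymes join auxin to amino acids and DAO1 belongs to the oxidation route, and both lower the amount of active auxin. In leaf explants auxin drives callus to form along a root-like programme.

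The degron separates the Aux/IAA genes, and its coding bases were read from the RefSeq genome TAIR10.1 to show which genes carry it. The core searched for in the reading frame was the codons GGN, TGG, CCN and CCN in a row, which code for Gly-Trp-Pro-Pro. It was found once in each of 23 of the 29 Aux/IAA genes (79.3%), in 0 of the 9 GH3 and DAO1 genes, and in 34 of 27444 protein-coding genes overall (0.124%). The 6 Aux/IAA genes without it were IAA20, IAA30, IAA31, IAA32, IAA33 and IAA34, which are known as non-canonical members. The core, in capitals, and the coding bases around it are shown for the 7 genes that hold it and passed the test between the days, 5' to 3' on the coding strand.
IAA2 (chr3:8181387-8181419, minus strand): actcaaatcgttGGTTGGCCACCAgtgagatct
IAA17 (chr1:1136935-1136967, plus strand): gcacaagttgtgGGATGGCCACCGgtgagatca
IAA18 (chr1:19306228-19306260, plus strand): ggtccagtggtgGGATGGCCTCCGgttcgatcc
IAA26 (chr3:5613662-5613694, minus strand): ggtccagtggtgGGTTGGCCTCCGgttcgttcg
IAA28 (chr5:9033809-9033841, plus strand): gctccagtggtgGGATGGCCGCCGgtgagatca
IAA5 (chr1:5366275-5366307, minus strand): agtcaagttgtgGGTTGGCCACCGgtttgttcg
IAA27 (chr4:14324654-14324686, minus strand): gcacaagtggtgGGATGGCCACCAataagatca

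Day 12 callus held more transcript of IAA2, IAA17, IAA18, IAA26 and IAA28 than day 7 callus, and less of IAA5, IAA20, IAA27, IAA30 and GH3.5. These 10 are all the calls among the 31 of the 38 genes that passed the count filter, tested with edgeR's quasi-likelihood test on counts at a Benjamini-Hochberg adjusted p of 0.05 over all 18364 genes tested. The share, 32.3%, stands beside 25.1% of all genes tested (12.7% higher and 12.5% lower). The median log2 change was 0.10 over the 31 genes and -0.00 over all genes tested. For 15 of the 31 genes the days did not overlap (9 with day 12 above and 6 with day 12 below), against 43.7% of all genes tested. On log2(TPM + 1) from the deposited TPM, which ribosomal RNA takes in uneven shares, IAA5, IAA18 and IAA28 kept their calls and the other 7 lost them; with TPM rescaled without ribosomal RNA 9 of the 10 were kept. The test on log2(TPM + 1), by limma, added 5 calls. It called IAA16 (adjusted p = 0.0443), IAA29 (0.00178), GH3.2 (0.0132) and GH3.3 (0.0129) as higher and IAA33 (0.0228) as lower. With TPM rescaled without ribosomal RNA none of these 5 passed (IAA16 0.0552, IAA29 0.0766, GH3.2 0.07485, GH3.3 0.2345, IAA33 0.2566). The 7 genes below the filter were IAA6 and GH3.4, listed at 0 in every library, and IAA15, IAA31, IAA32, IAA34 and GH3.9, each with 1.27 CPM or less in every library.

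**Figure D1:**
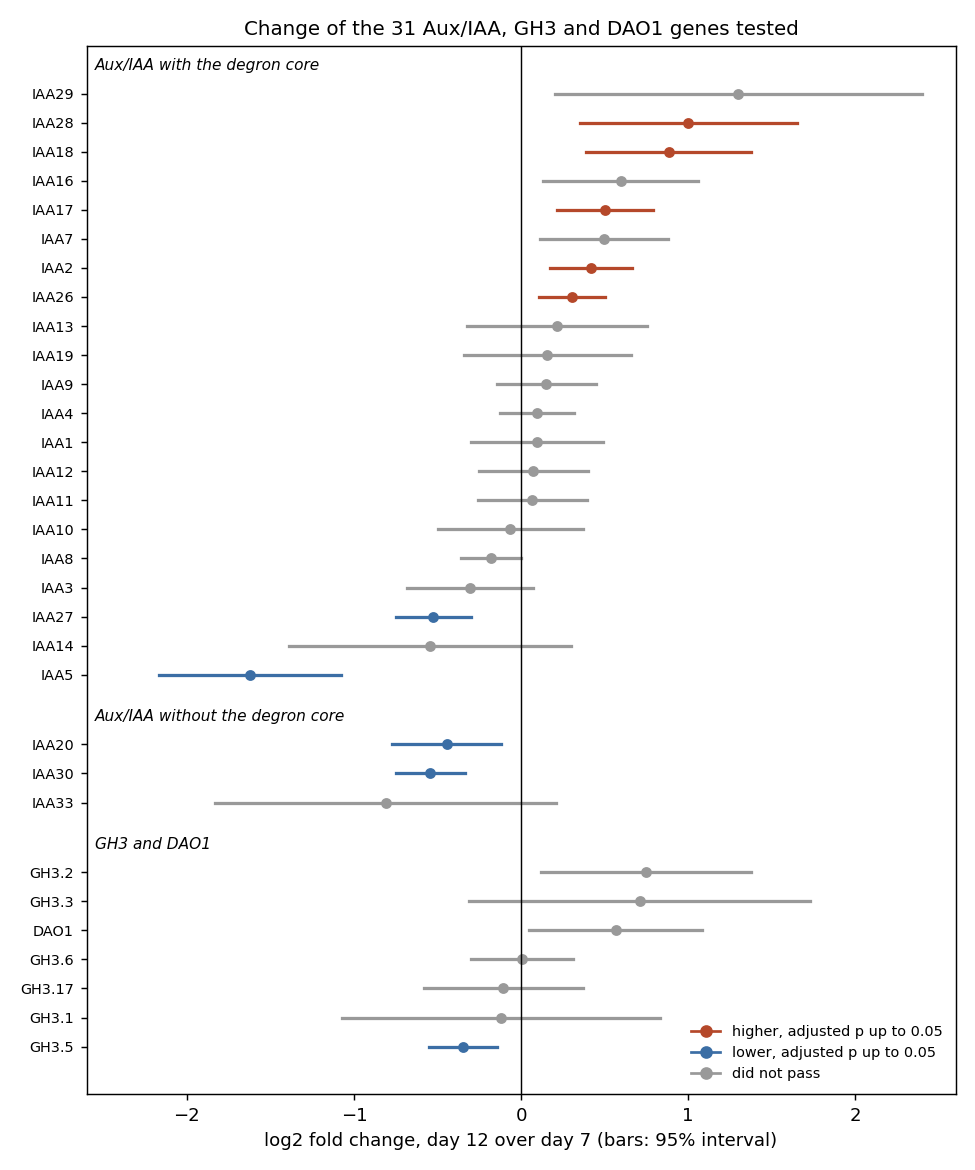
The log2 fold change of day 12 over day 7 (horizontal axis) is drawn for each of the 31 genes tested, as a point with its 95% interval, in 3 blocks by gene kind. Of 21 genes with the degron core 5 were higher (red) and 2 lower (blue), of 3 without it 2 were lower, and of 7 GH3 and DAO1 genes 1 was lower. Grey marks genes that did not pass. Over all genes tested 12.7% were higher and 12.5% lower.

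The libraries held from 4927953 to 10426265 counts on day 12 and from 7412972 to 10746277 on day 7. The shallowest was day 12 replicate 3. CPM values are counts relative to library size after scaling by TMM factors, and a count of 3 equals 0.269 to 0.635 CPM. Ribosomal RNA loci took 4.31% to 23.1% of TPM on day 12 and 1.76% to 31.3% on day 7. Levels of different genes are therefore compared on TPM (per transcript length) rescaled without those loci.

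As a family the Aux/IAA genes were abundant. Their summed level was 3212, 3547 and 3276 rescaled TPM in day 12 replicates 1, 2 and 3, against 2788, 3087 and 2774 in the day 7 replicates. All 3 day 12 sums lay above the day 7 sums, with a narrow gap between 3212 and 3087. The sums were not tested. On this scale, as log2(TPM + 1), the median change over all genes kept was 0.044, also toward day 12. IAA2 and IAA9 had the highest means over the 6 libraries, 595 and 559 rescaled TPM, at or above 98.8% and 98.7% of genes tested. They were followed among the Aux/IAA genes by IAA17 (301), IAA8 (276), IAA4 (265), IAA30 (201) and IAA1 (164). IAA2, IAA9 and IAA17 together made up 49.0% to 50.2% of the family's TPM on day 12 and 42.3% to 44.6% on day 7. The share of IAA9 alone overlapped, at 15.7% to 20.3% on day 12 and 17.1% to 20% on day 7. Shares of 1 sum move against each other, so they are not results separate from the changes of single genes. The lowest of the Aux/IAA genes that could be tested, IAA29, IAA18 and IAA10, averaged 6.67, 9.52 and 9.78 rescaled TPM. Over the 6 libraries the ranges of neighbours among these 7 genes overlapped, except between IAA9 (476 to 719) and IAA17 (226 to 392).

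**Figure D2:**
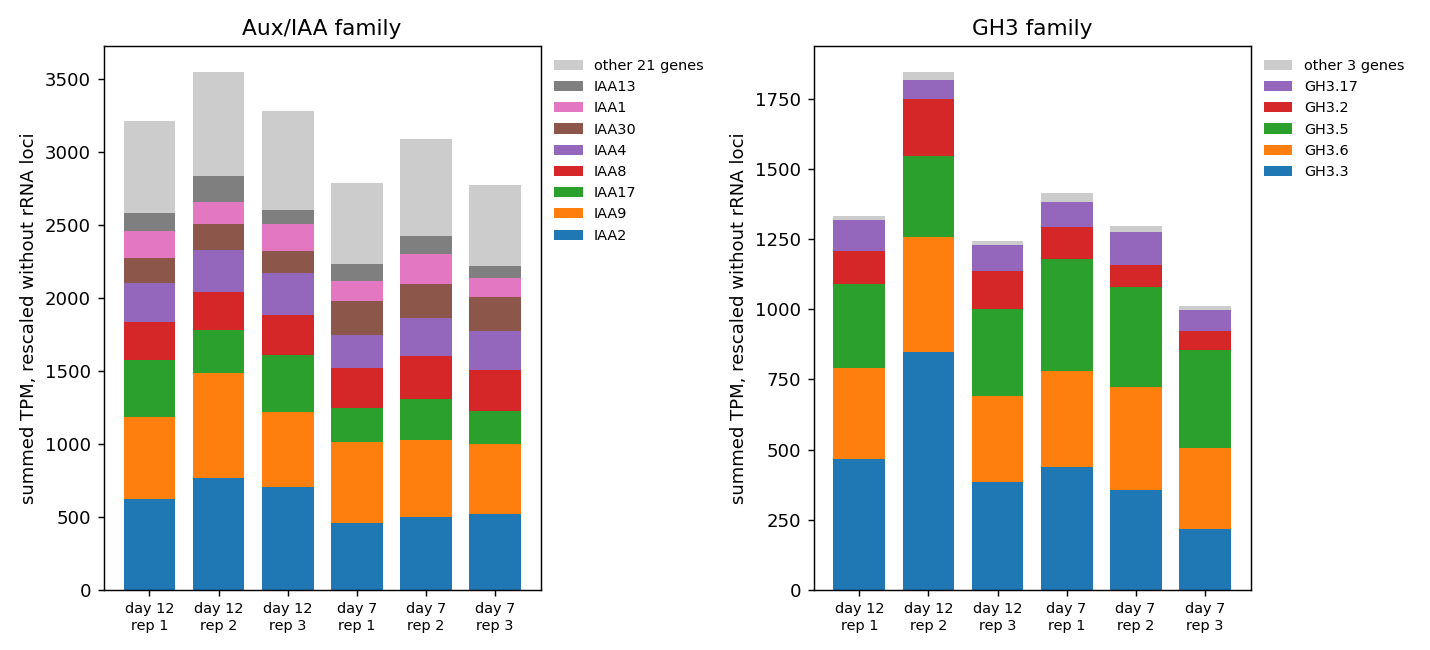
Stacked bars give the summed TPM, rescaled without rRNA loci, of the Aux/IAA family (left) and the GH3 family (right) in each library, split by gene, with day 12 libraries left of day 7. The Aux/IAA sums were 3212 to 3547 on day 12 and 2774 to 3087 on day 7. The GH3 sum was highest, 1847, in day 12 replicate 2.

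IAA2 (AT3G23030), an early auxin gene widely used as a reporter of auxin response, gave 378, 484 and 434 CPM in the day 12 libraries, in the order of replicates 1 to 3 used throughout, against 301, 325 and 343 CPM on day 7. Every day 12 library was above every day 7 library. It rose by 0.42 ± 0.11 (log2, SE; adjusted p = 0.0229). IAA17 (AXR3, AT1G04250), whose stabilised form blocks root hairs and root gravitropism, stood at 319, 248 and 326 CPM on day 12, against 198, 235 and 195 CPM on day 7. Replicate 2 was the lowest day 12 library and the highest day 7 library, and the days did not overlap. IAA17 rose by 0.50 ± 0.13 (adjusted p = 0.0210). The calls were lost on leaving out 1 library. For IAA2 this was day 12 replicate 2 (adjusted p = 0.0514) or 3 (0.0507), or day 7 replicate 1 (0.0947) or 2 (0.0716). For IAA17 it was day 12 replicate 1 (0.0659) or 3 (0.0560), or day 7 replicate 1 (0.0789) or 3 (0.0763).

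IAA18, IAA26 and IAA28 also rose. IAA18 and IAA26 are each other's closest Aux/IAA coding sequences here, 74.3% identical, and stabilised IAA18 or IAA28 blocks lateral root formation. IAA18 (AT1G51950) stood at 12.4, 19.6 and 11.9 CPM on day 12, against 8.30, 7.63 and 8.08 CPM on day 7, with replicate 2 the highest on day 12. It rose by 0.89 ± 0.22 (adjusted p = 0.0191). IAA26 (AT3G16500) stood at 92.6, 106 and 94.6 CPM on day 12, against 79.2, 81.1 and 76.9 CPM on day 7. Its day 7 values were close together and all below day 12, and it rose by 0.31 ± 0.09 (adjusted p = 0.0332). IAA28 (AT5G25890) stood at 12.2, 19.0 and 27.5 CPM on day 12, against 8.98, 11.2 and 8.52 CPM on day 7. The day 12 values were widely spread, and the lowest of them was just above the highest day 7 value. IAA28 rose by 1.00 ± 0.28 (adjusted p = 0.0353).

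These 3 calls also rested on single libraries. The IAA18 call went with the loss of day 12 replicate 2 (adjusted p = 0.0536) or of day 7 replicate 1 (0.0594), 2 (0.0613) or 3 (0.0542). IAA26 lost it without day 12 replicate 2 (0.0868) or 3 (0.0505) or day 7 replicate 1 (0.106), 2 (0.0827) or 3 (0.104), and with library sizes alone as scaling (0.0754). IAA28 lost it without day 12 replicate 2 (0.0822) or 3 (0.0684) or day 7 replicate 1 (0.121), 2 (0.0607) or 3 (0.112), and by limma-voom (0.0720). The log2 change of each stayed above 0 without any single library, at 0.61 or more for IAA18, 0.24 or more for IAA26 and 0.71 or more for IAA28.

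**Figure D3:**
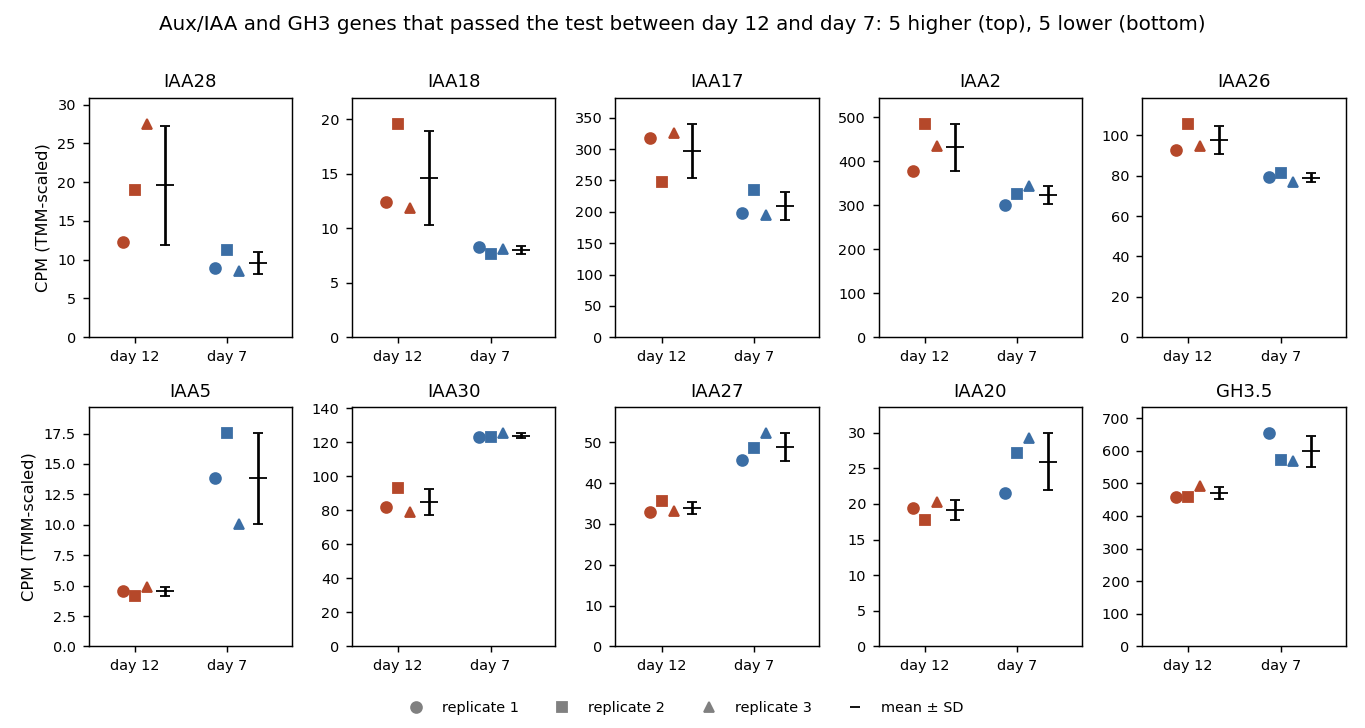
Each panel plots 1 gene that passed the test, with CPM from 0 on the vertical axis, day 12 libraries left of day 7, a symbol for each replicate number, and the mean ± SD (n = 3) beside the points. The top row holds the 5 genes that were higher on day 12 and the bottom row the 5 that were lower. In each panel the libraries of the days do not overlap.

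Among genes with the degron core, IAA5 and IAA27 fell. IAA5 (AT1G15580), one of the genes most quickly induced by auxin, stood at 4.59, 4.11 and 4.87 CPM on day 12, against 13.9, 17.5 and 10.1 CPM on day 7. Day 12 values were tightly grouped and each was less than any day 7 value. The fall of 1.62 ± 0.24 (log2, SE; adjusted p = 0.00313) had the greatest size among the 10 calls. IAA27 (PAP2, AT4G29080) stood at 32.95, 35.6 and 33.2 CPM on day 12, against 45.6, 48.7 and 52.2 CPM on day 7, and fell by 0.52 ± 0.10 (adjusted p = 0.00724). The ranges were narrow on both days and did not meet. Both calls held when any 1 library was left out, with adjusted p of 0.00656 to 0.0157 for IAA5 and 0.0113 to 0.0284 for IAA27. The annotated IAA5 span shares 48 bases, none of them IAA5 coding, with CYCA2;3 (AT1G15570) on the opposite strand, and this mitotic cyclin gene fell by 0.66 ± 0.10 (adjusted p = 0.00316). The strand setting of the counting is not given in the sources used here, so reads from those bases cannot be assigned to one of the pair.

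IAA30 and IAA20, which lack the degron core and whose overproduction disturbs root meristem and vascular patterning, both fell. They are the most alike pair of Aux/IAA coding sequences, 80.6% identical. IAA30 (AT3G62100) stood at 81.7, 93.2 and 79.0 CPM on day 12, against 123, 123 and 125 CPM on day 7. Its day 7 libraries were nearly equal and stood far above day 12. It fell by 0.54 ± 0.09 (adjusted p = 0.00451), and the call held without any 1 library (adjusted p 0.00403 to 0.0220). IAA20 (AT2G46990) stood at 19.5, 17.7 and 20.3 CPM on day 12, against 21.5, 27.1 and 29.2 CPM on day 7. The lowest day 7 library, replicate 1, came close to day 12. The fall of IAA20, 0.45 ± 0.14, was at the edge of the threshold (adjusted p = 0.0498). Its call was lost with RLE factors (0.0528), with no count filter (0.0524), by DESeq2 (0.0885), and without day 12 replicate 1 (0.108), 2 (0.123) or 3 (0.0677) or day 7 replicate 2 (0.135) or 3 (0.157).

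Of the other genes without the core, IAA33 (AT5G57420) was tested and did not pass. It stood at 5.61, 3.06 and 11.2 CPM on day 12, against 8.03, 13.2 and 11.6 CPM on day 7, and the days overlapped through day 12 replicate 3 (log2 change -0.81, 95% interval -1.83 to 0.21, adjusted p = 0.215). IAA33 passed as lower without that library (log2 change -1.35, adjusted p = 0.0269) and on log2(TPM + 1) (-0.78, adjusted p = 0.0228). With TPM rescaled without ribosomal RNA it did not pass (adjusted p = 0.2566). IAA31, IAA32 and IAA34 were too low to test. The 6 genes without the core summed to 222, 223 and 221 rescaled TPM on day 12, against 297, 316 and 314 on day 7. Their share of the family's TPM was 6.90%, 6.30% and 6.74% on day 12, against 10.7%, 10.3% and 11.3% on day 7. IAA30 alone held 5.26%, 5.10% and 4.78% on day 12, against 8.43%, 7.54% and 8.35% on day 7. The difference in change between genes with and without the core was not tested. Their medians were 0.15 over 21 genes with it and -0.54 over 3 without. The median of the 3 is the value of IAA30 itself, and the 3 include its close relative IAA20.

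The remaining 14 tested genes with the core did not pass. IAA9 (AT5G65670), the second most abundant, stood at 695, 916 and 656 CPM on day 12, against 732, 675 and 634 CPM on day 7, with only day 12 replicate 2 apart (log2 change 0.15, 95% interval -0.15 to 0.45). IAA8 (AT2G22670), its closest coding sequence (67.1% identical), stood at 252, 259 and 265 CPM on day 12, against 288, 302 and 289 CPM on day 7. All its day 12 values were lower, by a small amount (log2 change -0.18, interval -0.36 to 0.00, adjusted p = 0.129). IAA4 (AT5G43700) stood at 223, 254 and 243 CPM on day 12, against 204, 229 and 240 CPM on day 7 (interval -0.12 to 0.32). IAA1 (AT4G14560), the closest coding sequence to IAA4 (66.4%), stood at 100, 83.6 and 98.9 CPM on day 12, against 76.0, 113 and 74.4 CPM on day 7 (interval -0.30 to 0.49). In both genes the days overlapped.

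IAA7 (AXR2), IAA14 (SLR), IAA16 and IAA17 form a related group of strong repressors. IAA16 (AT3G04730) stood at 163, 244 and 162 CPM on day 12, against 112, 153 and 112 CPM on day 7. Replicate 2 was the highest library on each day. The log2 change of 0.60 ± 0.20 did not pass (adjusted p = 0.0637), but with the replicate number as a block it did (0.59, adjusted p = 0.00270), as by DESeq2 (0.00946) and on log2(TPM + 1) (0.0443). With TPM rescaled without ribosomal RNA IAA16 did not pass (0.0552). IAA7 (AT3G23050) stood at 70.7, 58.0 and 90.0 CPM on day 12, against 43.8, 57.0 and 52.8 CPM on day 7, with an adjusted p of 0.0624. The days nearly touched, at day 12 and day 7 replicates 2. It passed by DESeq2 (adjusted p = 0.0266) and, without day 12 replicate 2, in the edgeR test (0.64, adjusted p = 0.0170). IAA14 was low, at 6.53, 2.87 and 8.89 CPM on day 12, against 6.94, 9.16 and 9.63 CPM on day 7 (adjusted p = 0.313). IAA29 gave the highest fitted change, 1.301 ± 0.48, without passing (adjusted p = 0.0801), but passed by DESeq2 (0.0408) and on log2(TPM + 1) (0.00178). With TPM rescaled without ribosomal RNA IAA29 did not pass (0.0766). It had 12.99 CPM in day 12 replicate 2 and 2.33 to 4.69 CPM elsewhere, and without that library its change was 0.57.

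The other 6 genes, IAA3 (SHY2), IAA10, IAA11, IAA12 (BDL), IAA13 and IAA19 (MSG2), had fitted log2 changes from -0.30 (IAA3) to 0.22 (IAA13). IAA12, the repressor of the auxin response factor MONOPTEROS in the embryo, averaged 32.9 ± 3.22 CPM on day 12 and 31.1 ± 5.14 CPM on day 7 (SD, n = 3 each). Its closest coding sequence, IAA13 (73.1%), averaged 114 ± 35.9 CPM on day 12 and 99.1 ± 16.0 CPM on day 7. IAA19, which acts in hypocotyl tropisms, averaged 47.2 ± 10.1 CPM on day 12 and 42.6 ± 10.4 CPM on day 7. A p that misses the threshold leaves changes of the size in each interval possible. For IAA13 that interval was -0.33 to 0.76.

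Of the GH3 genes, GH3.5 fell and the others did not pass. GH3.5 (WES1, AT4G27260), which conjugates auxin and can also use salicylic acid, stood at 459, 459 and 490 CPM on day 12, against 654, 572 and 567 CPM on day 7. The day 12 libraries were close to each other and all below day 7. It fell by 0.35 ± 0.09 (adjusted p = 0.0231). The call was lost without day 12 replicate 1 (0.0623) or day 7 replicate 1 (0.0838) or 2 (0.0558). GH3.6 (DFL1, AT5G54510), 84.1% identical to GH3.5 in coding sequence, stood at 481, 634 and 469 CPM on day 12, against 544, 569 and 464 CPM on day 7. The days overlapped (log2 change 0.01, 95% interval -0.30 to 0.31).

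GH3.3 and GH3.2, auxin-induced conjugating enzymes of which GH3.3 acts with GH3.5 and GH3.6 in adventitious rooting, did not pass. GH3.3 (AT2G23170) stood at 622, 1174 and 527 CPM on day 12, against 621, 494 and 306 CPM on day 7. Day 12 replicate 2 stood apart at the top, and day 12 replicate 3 was below day 7 replicate 1. Its log2 change was 0.71 ± 0.41 (adjusted p = 0.261), and on log2(TPM + 1) it passed (0.76, adjusted p = 0.0129). With TPM rescaled without ribosomal RNA it did not pass (0.73, adjusted p = 0.2345). GH3.2 (AT4G37390) stood at 166, 288 and 189 CPM on day 12, against 165, 117 and 102 CPM on day 7, with the days parted only by the narrow gap between the replicates 1 (0.75 ± 0.26, adjusted p = 0.0823). GH3.2 passed by DESeq2 (adjusted p = 0.00486) and on log2(TPM + 1) (0.0132), but not with TPM rescaled without ribosomal RNA (0.07485). Without day 12 replicate 2 the log2 change was 0.28 for GH3.3 and 0.47 for GH3.2. The coding sequence of GH3.2 is 90.0% identical to that of GH3.4, which was listed at 0, and reads could be split between such copies.

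GH3.17, which prefers glutamate, averaged 138 ± 29.0 CPM on day 12 and 148 ± 32.4 CPM on day 7, and GH3.1 averaged 29.4 ± 12.3 CPM on day 12 and 32.6 ± 12.8 CPM on day 7 (SD, n = 3 each). Neither passed. DAO1 (AT1G14130) stood at 23.0, 37.5 and 20.5 CPM on day 12, against 16.9, 20.8 and 17.6 CPM on day 7. Day 12 replicate 3 was just below day 7 replicate 2. Its log2 change of 0.57 ± 0.23 did not pass (adjusted p = 0.103), but with the replicate number as a block it did (0.53, adjusted p = 0.0301). Without day 12 replicate 2 its change was 0.25. With the block 12 of the 31 genes passed, the earlier 10 and IAA16 and DAO1, against 28.1% of all genes tested.

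**Figure D4:**
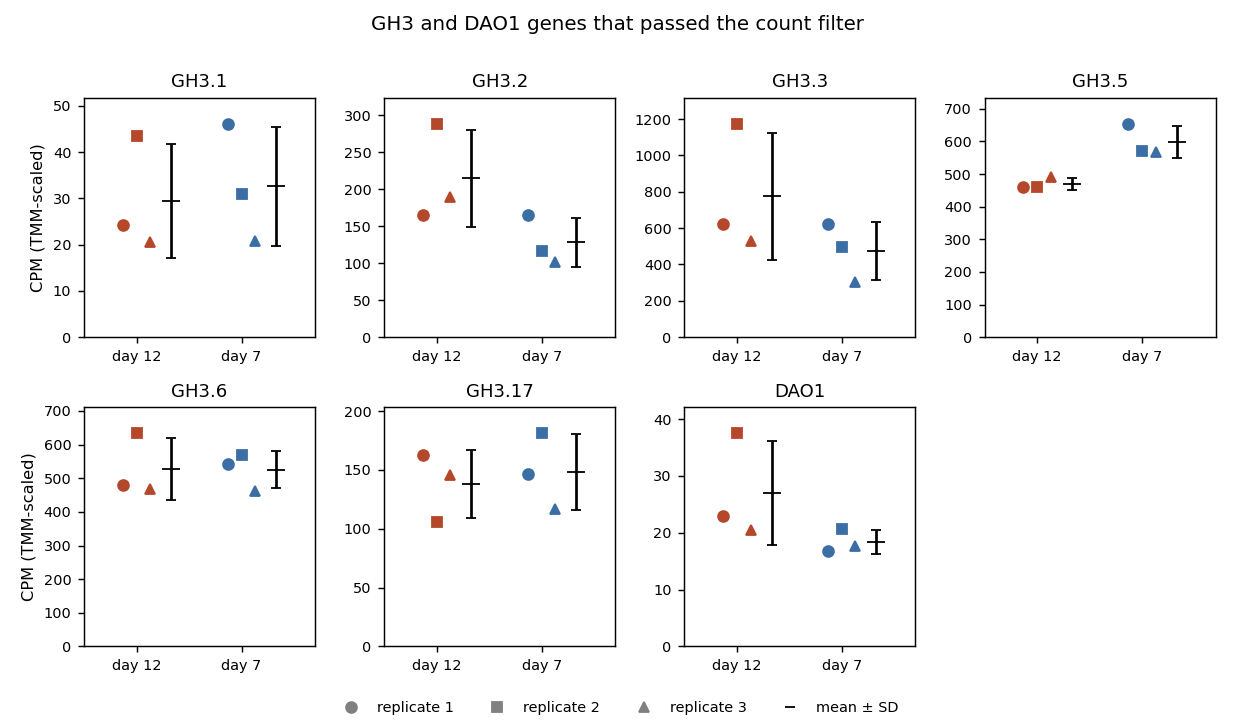
Panels plot CPM from 0 for the 7 GH3 and DAO1 genes tested, day 12 left of day 7, with a symbol for each replicate number and the mean ± SD (n = 3). Day 12 replicate 2 (square) is the highest library for GH3.3, at 1174 CPM, and for GH3.2, GH3.6 and DAO1. GH3.5 is the 1 gene of the 7 that passed, with all day 12 points below day 7.

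Within the GH3 family 3 genes held most of the level. GH3.3, GH3.5 and GH3.6 made up 80.5% to 83.7% of the family's rescaled TPM on day 12 and 83.1% to 84.5% on day 7. GH3.5 alone held 22.5%, 15.6% and 24.9% on day 12, against 28.1%, 27.5% and 34.3% on day 7. GH3.3 held 34.9%, 45.9% and 31% on day 12, against 30.8%, 27.3% and 21.3% on day 7. All GH3.3 shares on day 12 were above those of day 7, and all GH3.5 shares below. Since shares of 1 sum move against each other, these are not separate results.

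Day 12 replicate 2 was the highest of the day 12 libraries for 19 of the 31 genes tested (61.3%), against 34.3% of all genes tested. It was the lowest of that day for IAA1, IAA3, IAA5, IAA7, IAA14, IAA17, IAA20, IAA33, GH3.5 and GH3.17. The highest day 12 values of IAA13, IAA16, IAA18, IAA29, GH3.1, GH3.2, GH3.3 and DAO1 were all in that library.

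Members that move together invite a look at their promoters, so the 250 bases before each annotated gene start in TAIR10.1 were searched on both strands for TGTCTC and TGTCGG, letters that auxin response factors are known to bind. On opposite strands these motifs can share 1 base at their ends, and such a pair would count as both. Either was present before 16 of the 38 genes (42.1%) and before 4027 of 27443 protein-coding genes (14.7%). All 5 genes that fell had a match and 0 of the 5 that rose had one, while 8 of the 21 tested genes that did not pass had one. Over all protein-coding genes tested, the share was 14.2% of those higher and 15.4% of those lower. In 500 bases the counts were again 5 of 5 that fell and 0 of 5 that rose, beside 19 of all 38 genes here (50.0%). Of all protein-coding genes tested, 28.1% had a match in 500 bases (26.3% of those higher and 30.5% of those lower). In 1000 bases the counts were 5 of 5 and 3 of 5, beside 28 of all 38 genes here (73.7%). Of all protein-coding genes tested, 49.3% had a match in 1000 bases. IAA16, GH3.2 and GH3.3 each had a match in 250 bases and did not pass, with fitted log2 changes of 0.60, 0.75 and 0.71. IAA16 and GH3.2 passed as higher by DESeq2, and IAA16 also with the replicate block. In those fits some genes that rose therefore had a match. IAA19 had 3 matches and did not pass, and related genes share promoter sequence, so the genes are not independent. This pattern was noticed, and the longer windows chosen, after the calls were seen, and it was given no test. A match is a description of letters and not a site, and its absence says only that these letters are not in this window.

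The stretches that hold the matches are printed for the 5 genes that fell and for IAA19, 5' to 3' on the strand of the gene, with matches in capitals (GAGACA and CCGACA are the same motifs on the other strand).
IAA30 (chr3:22995615-22995650, plus strand, match 56 bases before the start): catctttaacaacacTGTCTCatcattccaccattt
IAA20 (chr2:19307630-19307665, plus strand, match 69 bases before the start): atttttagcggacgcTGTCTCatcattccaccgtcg
GH3.5 (chr4:13653517-13653552, plus strand, match 47 bases before the start): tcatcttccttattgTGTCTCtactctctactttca
IAA27 (chr4:14325588-14325611, minus strand, match 247 bases before the start): accTGTCGGggagtagatgtctac
IAA5 (chr1:5366544-5366738, minus strand, 3 matches): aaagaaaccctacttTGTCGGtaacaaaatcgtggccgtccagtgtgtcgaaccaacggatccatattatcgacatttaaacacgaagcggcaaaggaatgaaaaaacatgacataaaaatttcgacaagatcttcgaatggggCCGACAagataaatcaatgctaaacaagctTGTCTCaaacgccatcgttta
IAA19 (chr3:5263802-5263893, plus strand, 3 matches): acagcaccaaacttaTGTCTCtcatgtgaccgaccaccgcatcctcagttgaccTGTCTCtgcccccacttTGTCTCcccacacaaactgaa

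The other genes of the auxin circuit were counted by role. Their counts are to be read beside the 25.1% of all genes tested that passed (12.7% higher and 12.5% lower). Of the 6 TIR1/AFB receptor genes none passed, with fitted log2 changes from -0.08 to 0.25. Among 12 genes of the receptor's ubiquitin ligase and of the TOPLESS corepressors 3 rose and 1 fell (33.3% called). TPL (TOPLESS) stood at 350, 343 and 359 CPM on day 12, against 288, 265 and 293 CPM on day 7, all day 12 values being higher. It rose by 0.31 ± 0.08 (adjusted p = 0.0248). TPR1, a TOPLESS relative, rose by 0.37 ± 0.10 (adjusted p = 0.0245), and ASK1, a subunit of the ligase, fell by 0.31 ± 0.09 (adjusted p = 0.0330). The TPL call was lost without any single day 7 library (adjusted p = 0.0626, 0.114 and 0.0545 without replicates 1, 2 and 3). TPR1 lost it without day 12 replicate 1 (0.0740) or day 7 replicate 1 (0.0784), 2 (0.0525) or 3 (0.0887) and with library sizes alone (0.0519), and ASK1 without day 12 replicate 1 (0.0866) or 3 (0.0505) or day 7 replicate 1 (0.0900), 2 (0.0867) or 3 (0.0904).

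None of the 8 tested TAA and YUC genes of auxin synthesis passed, of 14 listed. Of 7 amidohydrolase genes, whose enzymes free auxin from conjugates, 6 were tested and 2 passed (33.3%, against 25.1% of all genes tested). ILL6, which is also known to cleave jasmonate conjugates, stood at 25.4, 20.9 and 16.7 CPM on day 12, against 40.5, 30.8 and 37.5 CPM on day 7, and fell by 0.77 ± 0.17 (adjusted p = 0.0118). ILL1 rose by 0.37 ± 0.11 (adjusted p = 0.0381), a call lost without day 12 replicate 1 (0.0760) or 2 (0.107) or day 7 replicate 1 (0.126), 2 (0.0558) or 3 (0.121), by DESeq2 (0.0520), and with upper-quartile factors (0.0525) or library sizes alone (0.0802). MES17, an esterase that frees auxin from its methyl ester, stood at 1.84, 1.53 and 2.12 CPM on day 12, against 9.79, 5.48 and 3.98 CPM on day 7. It fell by 1.82 ± 0.40 (adjusted p = 0.0117), the 1 call among 4 tested genes of other auxin-modifying enzymes (25%, against 25.1% of all genes tested).

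Among 7 other tested GH3 genes the locus AT5G13360 fell by 0.54 ± 0.11 (adjusted p = 0.00844). It was the 1 call of the 7 (14.3%, against 25.1% of all genes tested). On log2(TPM + 1) the calls of TPL (adjusted p = 0.366), TPR1 (0.250), ASK1 (0.652), ILL6 (0.0644), ILL1 (0.304) and AT5G13360 (0.232) were lost. With TPM rescaled without ribosomal RNA the same test kept those of TPL (0.0217), TPR1 (0.0330), ASK1 (0.0492) and ILL1 (0.0433). Of 21 SAUR genes, small growth genes quickly induced by auxin, 11 were listed at 0 in every library, 8 were tested and none passed. With the replicate block the neighbour of DAO1, AT1G14120, also passed (log2 change 1.02 without the block; blocked adjusted p = 0.00883). So did PBS3 (AT5G13320), a GH3 gene of salicylate synthesis, at 24.1, 156 and 5.93 CPM on day 12 and 3 counts over the day 7 libraries (blocked adjusted p = 0.000908).

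Markers of other cell states moved with the days, and their part in the results above was not tested. Over all genes tested 12.7% were higher and 12.5% lower. The 4 genes of dividing cells all fell, with summed levels of 167 to 176 CPM on day 12 and 312 to 339 CPM on day 7. Of 7 mesophyll genes 6 were tested and 5 fell (52.3 to 102 CPM on day 12, 125 to 220 CPM on day 7), with RBCS3B at 0 in 2 day 12 libraries and LHCB1.4 at 0 in 1 day 12 and 2 day 7 libraries. Of 4 shoot epidermis genes 3 fell (970 to 1058 CPM on day 12, 1920 to 2538 CPM on day 7). LTP2 held most of that sum, averaging 914 CPM on day 12 and 2122 CPM on day 7. Of 5 xylem genes 4 were tested and none passed (26.9 to 57.3 CPM on day 12, 30.1 to 57.3 CPM on day 7), and of 4 phloem genes 2 fell (35.6 to 57.0 CPM on day 12, 64.4 to 106 CPM on day 7). Of 4 endodermis genes 2 were tested, and ASFT rose while SCR fell (98.9 to 104 CPM on day 12, 96.9 to 119 CPM on day 7), with CASP1 and CASP2 at 0 on day 7. SCR held most of that sum, averaging 77.1 CPM on day 12 and 105 CPM on day 7. ASFT averaged 21.3 CPM on day 12 and 3.49 CPM on day 7. The replicate block removed the LHCA1 call of mesophyll (adjusted p = 0.0608). It added falls of ATML1 of the epidermis (0.0215) and of XCP1 (0.0235) and XCP2 (0.0317) of xylem, and a rise of CESA7 (0.0118), also of xylem. In bulk RNA fewer cells of a type and less RNA per cell cannot be told apart.

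The labelled tissue was checked against 6 regulators of callus and the root tip. WOX5, PLT1, PLT2, LBD16 and WOX11 were present in every library, and the 6 summed to 424 to 462 CPM on day 12 and 315 to 348 CPM on day 7. Only WOX11 and PLT1 had higher means on day 12, while those of WOX5, PLT2, LBD16 and LBD29 were lower. WOX11 was uneven, at 120, 204.5 and 68.8 CPM on day 12, against 36.5, 52.8 and 31.5 CPM on day 7. WOX11 rose by 1.71 ± 0.45 (adjusted p = 0.0465) and LBD16, an auxin response gene of callus founder cells, fell by 0.80 ± 0.22 (adjusted p = 0.0297). With the replicate block PLT1 also rose (adjusted p = 0.0407). LBD29 had 4 counts over the day 12 libraries, against 51 over the day 7 libraries, and was too low to test.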

How the data were processed

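Libraries were prepared from total callus RNA with TruSeq reagents, per the labels' protocols. The authors deposited raw counts per locus (whole numbers, not normalized) and TPM values, normalized by transcript length and to equal library totals. The submitters' processing notes list TAIR10 as the build, with RSEM 1.3.1 and STAR 2.7.10a as tools. The role of each tool, strandedness and multi-mapped reads are not given in the sources used here. Of the loci, 36629 matched the RefSeq gene table.

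Counts were filtered with filterByExpr, scaled with TMM and tested with edgeR 4.0.16 in R 4.3.3 (robust quasi-likelihood, with no covariate beside day). A positive log2 change means higher on day 12, and its SE was derived from the F statistic. Same-numbered libraries of the days shared deviations from their group means (correlations 0.15, 0.16 and 0.24 over genes), and the number was also fitted as a block. The labels do not say whether the number marks a shared culture or batch. That it pairs the libraries is an assumption read from these same data. Alternatives used DESeq2 1.42.0 and limma 3.58.1, other scaling, filters and TPM, and the loss of each library. All replicate pairs differed by more than counting noise. The procedure was also run on simulated counts, with means and dispersions taken from these data. That simulation held no replicate pairing and no uneven ribosomal RNA, so it does not bear on either.

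Sequences and coordinates are from RefSeq's TAIR10.1, whose nuclear chromosomes are those of TAIR10. The longest coding sequence per gene was used, and identity is over a global alignment. DAO1 carries no name in that table, so its locus is given.

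The genes and gene lists were chosen with earlier results of these data known. Values per library are given for each of the 38 genes that passed and for the 10 of highest mean level, and from pathway lists for no more than 3 genes that passed, by adjusted p, with 1 of the other direction. Marker lists are given by counts and summed levels. Values of IAA7, IAA12, IAA13, IAA14, IAA16, IAA19, IAA29, IAA33, GH3.1, GH3.2, GH3.17, DAO1, AT1G14120 and PBS3 and of single marker genes were added after they were seen.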

Additional observations from a re-analysis of the deposited data

How the results depend on the processing

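Over 19 alternatives, 31 tested genes gave 589 values: 488 kept their direction and their side of the threshold, 59 lost a call, 19 gained one and 23 changed sign, none of the last in a gene that had passed. Against 5 higher and 5 lower genes, DESeq2 called 9 higher. On log2(TPM + 1) and on log2(TPM + 0.1) 2 were lower in each, and with no TPM filter 0 were higher and 1 lower. After TPM was rescaled without rRNA loci 9 of the 10 calls were kept, all but IAA28. Leaving out 1 library gave 0 to 4 higher and 3 to 5 lower. IAA5, IAA27 and IAA30 passed without any 1 library. The replicate block lost none of the 10 calls and added IAA16 and DAO1; it changed no other call among the 31 genes. Over all genes, 2324 were higher and 2292 lower in the main fit, against 1518 and 572 on log2(TPM + 1), 1496 and 573 on log2(TPM + 0.1), and 484 and 209 with no TPM filter. With 1 library left out, 1281 to 2286 were higher and 1248 to 2056 lower. With library sizes alone 1930 were higher and 2704 lower, and with upper-quartile factors 2093 and 2634.

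Signs changed in genes near 0. IAA10 was 0.024 on log2(TPM + 1), 0.028 on log2(TPM + 0.1) and 0.024 with no TPM filter. GH3.6 was -0.034 when only library sizes were used, -0.032 under upper-quartile scaling and -0.001 with the replicate block. With 1 library left out the log2 changes ranged from -0.015 to 0.323 for IAA1, -0.008 to 0.25 for IAA9, -0.192 to 0.022 for IAA10, -0.092 to 0.16 for IAA11, -0.054 to 0.17 for IAA12, -0.062 to 0.388 for IAA13, -0.034 to 0.271 for IAA19, -0.52 to 0.201 for GH3.1, -0.144 to 0.092 for GH3.6 and -0.253 to 0.066 for GH3.17. The causes were not tested. IAA15, IAA31, IAA32, IAA34 and GH3.9 had counts too few to test, and low depth was not told apart from low expression.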
